A study of Mus musculus with 5 samples.

Results

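Hypoxia-induced genes and Hif1a were followed through bone injury in mesenchymal cells of mouse skeletal muscle. The set holds 10 of the 31055 genes in the count matrices, chosen by name: the oxygen-regulated transcription factor subunit Hif1a, the hydroxylase gene Egln3, the secreted factors Vegfa, Adm and Angptl4, the mitochondrial genes Bnip3 and Ndufa4l2, the glycolytic regulator Pfkfb3, and Ndrg1 and Ankrd37. Measurements were single-cell RNA sequencing counts of unique molecular identifiers (UMIs, 1 per captured transcript) from GFP+ cells sorted from the hindlimb muscles around the tibia. There were 5 libraries: d0 (uninjured), d3 and d5 post-fracture, and d3 and d5 post-polytrauma.

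All mice were adult Prx1Cre;mTmG animals on a C57Bl/6 background. Prx1-Cre is active in the limb mesenchyme, and the mTmG reporter switches from Tomato to GFP where Cre has acted, so the sorted cells descend from that lineage and the myogenic, endothelial and blood cells of the muscle are largely left out. The fracture was a non-stabilized fracture of the tibia. Polytrauma was that fracture together with a mechanical crush of the muscles surrounding it. Periosteum and bone marrow were not collected. Each library pooled cells of 2 mice, and each condition had 1 library, so that no difference between conditions could be tested and no p-value is given. Intervals are 95% intervals that cover counting error only, and a difference larger than its interval may still lie within the spread between mice, which was not measured.

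The conditions of a pair of libraries go against their deposited labels. What is called d3 polytrauma here was deposited as d5 post-fracture, and what is called d5 fracture was deposited as d3 post-polytrauma, because the cell numbers listed in the study's source data match the barcodes of the libraries only in that way. The exchange only trades comparisons for one another: read with the deposited labels, what is given here as d3 polytrauma against d3 fracture becomes d5 fracture against d3 fracture, d5 polytrauma against d5 fracture becomes d5 polytrauma against d3 polytrauma, and the reverse. Comparisons of d3 fracture or d5 polytrauma with d0 do not depend on it.

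After filtering, 29831 cells remained, from 1468 (d5 fracture) to 11941 (d5 polytrauma) per library, with 17437190 (d0) to 202233564 UMIs per library (d5 polytrauma) and median depths of 3640 (d0) to 34949 UMIs per cell (d5 fracture). Myogenic markers were near 0, with Pax7 and Myf5 not detected in the d0, d3 fracture and d5 fracture libraries and the summed level of 5 markers between 0.287 and 3.72 UMIs of every 1000000 in the library (CPM), while the 5 FAP/MP markers (fibro-adipogenic and mesenchymal progenitors) summed to 933 to 2332. The d0, d3 fracture and d3 polytrauma libraries shared 405 to 525 cell barcodes pairwise and the 2 d5 libraries shared 944, but libraries of different sets shared 0 to 3, so the libraries fall into a d0 and d3 set and a d5 set. Differences between d5 and an earlier day and between these sets cannot be told apart. Of the 1468 cells of the d5 fracture library, 869 carried a barcode that also occurred in the d5 polytrauma library. They held a median of 48.6 times as many UMIs in the d5 fracture library, 858 of them at least 10 times as many. Leaving out every cell with a shared barcode added Bnip3 to the members past 2-fold in the pairs with d5 fracture, as given below. Leaving out only cells of shared barcodes short of 10 times the UMIs kept all 12 counts of members past 2-fold the same.

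Hypoxia-inducible factor 1 is made of an oxygen-labile alpha subunit, encoded by Hif1a, and a stable partner, encoded by Arnt. In oxygenated cells prolyl hydroxylases of the Egln family mark the alpha subunit for degradation through Vhl, and in hypoxia the alpha subunit accumulates, enters the nucleus and binds sites with the core ACGTG or GCGTG. This control acts on the protein, so that Hif1a mRNA is no measure of the factor's activity, whereas target mRNAs such as those of Vegfa, Bnip3, Egln3 and Ndufa4l2 are a common readout. A fracture and a crush both damage vessels, and low oxygen is a known feature of early callus and of injured muscle.

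Promoters of 4 members that differ most clearly in behaviour across the libraries are shown to make the core sites visible. RefSeq windows of 300 bases (250 before to 50 after the start, GRCm38.p6) were found for 7 of the 10 members, in 9 windows, and not for Ndrg1, Angptl4 and Ndufa4l2. Capitals mark ACGTG and GCGTG on either strand (CACGT and CACGC when read on the other strand), with overlapping matches counted.
Egln3, chr12:54203825-54204124, minus strand: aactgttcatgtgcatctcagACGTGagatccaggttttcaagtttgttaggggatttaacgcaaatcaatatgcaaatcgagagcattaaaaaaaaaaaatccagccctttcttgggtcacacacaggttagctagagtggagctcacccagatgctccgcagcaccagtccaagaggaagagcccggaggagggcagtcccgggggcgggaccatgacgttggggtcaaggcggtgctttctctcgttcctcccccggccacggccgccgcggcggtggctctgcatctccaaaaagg
Bnip3, chr7:138909457-138909756, minus strand: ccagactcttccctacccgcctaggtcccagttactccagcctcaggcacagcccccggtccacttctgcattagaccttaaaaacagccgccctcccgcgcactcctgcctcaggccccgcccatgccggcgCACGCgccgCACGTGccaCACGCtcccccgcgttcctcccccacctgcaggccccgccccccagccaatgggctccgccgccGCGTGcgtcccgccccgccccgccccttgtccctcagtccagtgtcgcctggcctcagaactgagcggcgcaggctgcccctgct
Adm, chr7:110627407-110627706, plus strand: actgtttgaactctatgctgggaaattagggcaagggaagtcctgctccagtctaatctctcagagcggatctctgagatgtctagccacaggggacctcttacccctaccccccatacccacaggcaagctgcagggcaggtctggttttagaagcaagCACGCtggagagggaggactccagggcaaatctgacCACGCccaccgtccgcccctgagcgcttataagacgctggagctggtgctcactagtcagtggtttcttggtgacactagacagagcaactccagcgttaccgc
Hif1a, chr12:73907617-73907916, plus strand: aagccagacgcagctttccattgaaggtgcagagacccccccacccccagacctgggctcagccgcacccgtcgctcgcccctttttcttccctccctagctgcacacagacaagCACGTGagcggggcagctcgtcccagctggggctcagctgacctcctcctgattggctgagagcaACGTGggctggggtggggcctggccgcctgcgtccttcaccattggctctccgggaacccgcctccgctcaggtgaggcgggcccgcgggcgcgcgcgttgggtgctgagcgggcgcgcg
The window of Egln3 held 1 match, that of Adm 2, that of Hif1a 3 and that of Bnip3 5. Of the 9 windows 8 held at least 1 match and 6 held 2 or more, and the first window of Vegfa held none. Of all 32851 promoter windows of this length 43.8% held at least 1 match and 20.6% held 2 or more, with ACGTG in 19.6% and GCGTG in 32.4%. A match is a run of letters and not a measured binding site.

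Levels are given in CPM, and are compared between libraries and not between genes. Hif1a was at 84.5 (80.2 to 88.9) at d0, 181 (178 to 184) at d3 post-fracture, 434 (428 to 439) at d5 post-fracture, 156 (153 to 158) at d3 post-polytrauma and 408 (406 to 411) at d5 post-polytrauma. With the conditions used here the day separated these libraries and the type of injury hardly did. With the deposited labels the fracture libraries would be at 181 and 156 and the polytrauma libraries at 434 and 408. Day and barcode set cannot be told apart between d3 and d5. When libraries were scaled by the median of gene ratios, the log2 steps from d3 to d5 were 0.52 (fracture) and 0.90 (polytrauma), below 2-fold. The d3 fracture library was 2.14-fold above d0, d5 fracture 2.40-fold above d3 fracture and d5 polytrauma 2.62-fold above d3 polytrauma, while polytrauma stood at 0.861 of fracture at d3 and 0.942 at d5. The last of these is a log2 ratio of -0.09 that becomes 0.11 when libraries are scaled by the median of gene ratios, and 0.085 without cells of shared barcodes, so that its direction depends on these choices.

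Egln3, which hydroxylates the alpha subunit and is itself a target of the factor, showed another order. It was at 5.28 (4.25 to 6.47) at d0, 2.78 (2.46 to 3.13) at d3 post-fracture, 0.925 (0.682 to 1.23) at d5 post-fracture, 12.7 (12.1 to 13.4) at d3 post-polytrauma and 7.46 (7.09 to 7.85) at d5 post-polytrauma. Both polytrauma libraries were above d0 and both fracture libraries below it, with no overlap between any neighbouring intervals. The log2 ratio of d5 polytrauma over d0 was 0.50, and turned to -0.19 without a cluster led by Krt19 that is described below. It was 0.002 for the mean of CPM over cells and -2.42 in FAP/MP-like cells alone, so the order at d5 depends on these choices. The levels over all cells are low, resting on 48 UMIs in the d5 fracture library and 92 at d0, against 1316 and 1509 in the polytrauma libraries.

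Vegfa, the principal growth factor for blood vessels, was at 44.8 (41.8 to 48.1) at d0, 17.1 (16.3 to 17.9) at d3 post-fracture, 27.9 (26.5 to 29.4) at d5 post-fracture, 23.5 (22.5 to 24.4) at d3 post-polytrauma and 38.5 (37.6 to 39.4) at d5 post-polytrauma. No injured library reached the uninjured level. Adm, the precursor of the vasodilator adrenomedullin, was at 203 (196 to 210) at d0 and between 13.8 (13.3 to 14.3) and 36.6 (35.4 to 37.7) in the 4 injured libraries. Within that range d3 polytrauma was highest, d5 fracture (28.6) and d3 fracture (27.6) had overlapping intervals, and d5 polytrauma was lowest. Adm spanned 14.7-fold over the 5 libraries and Egln3 13.8-fold.

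Angptl4, a secreted inhibitor of lipoprotein lipase, went the other way. It was at 33.0 (30.3 to 35.8) at d0, 396 (392 to 400) at d3 post-fracture, 212 (208 to 216) at d5 post-fracture, 221 (218 to 224) at d3 post-polytrauma and 244 (242 to 246) at d5 post-polytrauma. The d3 fracture library stood apart at 12.01-fold above d0, and the other 3 injured libraries lay close together, from 212 to 244.

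Bnip3, whose product marks mitochondria for removal by autophagy, was at 22.3 (20.1 to 24.6) at d0, 75.3 (73.6 to 77.0) at d3 post-fracture, 47.9 (46.0 to 49.8) at d5 post-fracture, 120.0 (118 to 122) at d3 post-polytrauma and 74.5 (73.4 to 75.7) at d5 post-polytrauma. All injured libraries were above d0, and on each day polytrauma was above fracture. Ndufa4l2, a mitochondrial protein that lowers complex I activity in hypoxia, was at 216 (209 to 223) at d0, 112 (109 to 114) at d3 post-fracture, 83.1 (80.7 to 85.6) at d5 post-fracture, 324 (321 to 328) at d3 post-polytrauma and 243 (241 to 245) at d5 post-polytrauma. Its order was that of Egln3 over all cells, with both polytrauma libraries above d0 and both fracture libraries below. The log2 ratio of d5 polytrauma over d0, 0.17, turned to -0.25 without the Krt19 cluster, and that of d3 fracture over d0, -0.95, was 0.49 in FAP/MP-like cells alone. Pfkfb3, which makes the activator of phosphofructokinase, varied least, from 8.19 (7.80 to 8.59) at d5 post-polytrauma to 14.5 (13.8 to 15.3) at d3 post-fracture, where the interval of d0 (12.7) overlapped those of d3 fracture and of d5 fracture (11.9), which did not overlap each other.

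Ndrg1, a stress-responsive gene of the N-myc downstream regulated family, was at 162 (156 to 168) at d0, 206 (203 to 209) at d3 post-fracture, 70.4 (68.1 to 72.7) at d5 post-fracture, 247 (244 to 250) at d3 post-polytrauma and 72.0 (70.8 to 73.2) at d5 post-polytrauma. Ankrd37, an ankyrin repeat gene, was at 13.5 (11.9 to 15.4), 12.6 (11.9 to 13.3), 3.43 (2.95 to 3.97), 19.4 (18.5 to 20.2) and 3.93 (3.66 to 4.21) in the same libraries. For both genes the d5 libraries were the lowest and their intervals overlapped, and d3 polytrauma was the highest. The 10 members therefore did not move as one: Hif1a was highest at d5, Ndrg1, Ankrd37, Egln3, Bnip3 and Ndufa4l2 at d3 post-polytrauma, Angptl4 and Pfkfb3 at d3 post-fracture, and Vegfa and Adm in uninjured muscle.

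**Figure D1:**
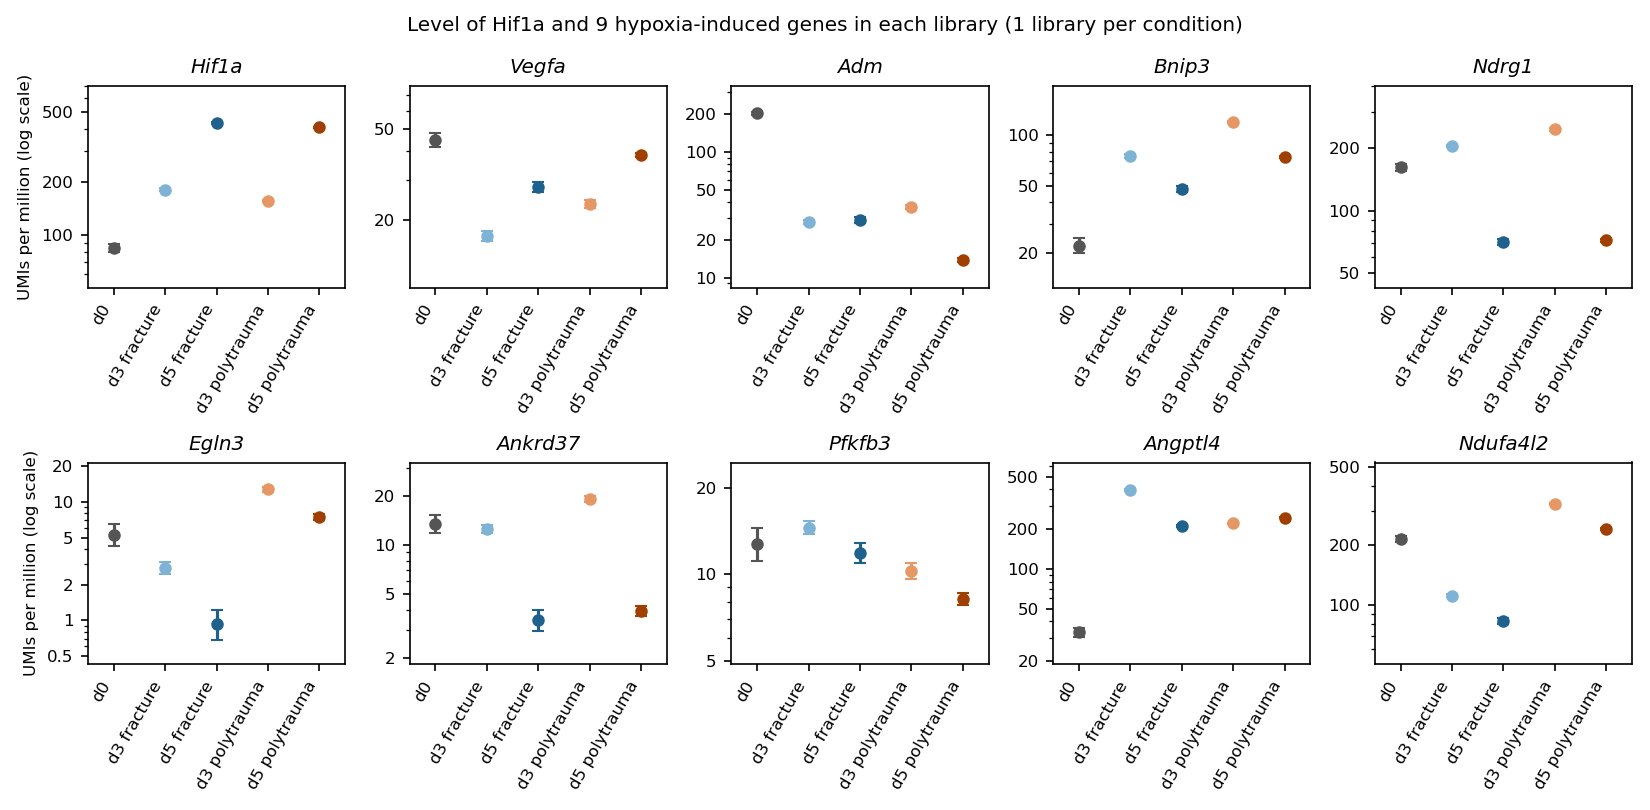
Level of each of the 10 genes in the 5 libraries, in CPM on a log axis, with 95% intervals of counting error (1 library of 2 pooled mice per condition). Over all cells Egln3 and Ndufa4l2 are higher in both polytrauma libraries than in d0 and lower in both fracture libraries, but without the Krt19 cluster d5 polytrauma is below d0 for both (log2 ratios of -0.19 and -0.25). For Egln3 that ratio is 0.002 for the mean of CPM over cells and -2.42 in FAP/MP-like cells alone. With the conditions used here Hif1a is ordered by day, and with the deposited labels it is highest in the polytrauma libraries. Day and barcode set cannot be told apart between d3 and d5.

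The fracture response over 5 days was read first. At d3 post-fracture 3 of the 10 members were at least 2-fold above d0 (Hif1a, Bnip3 and Angptl4, with log2 ratios of 1.10, 1.76 and 3.59), beside 13.4% of the 14610 genes with at least 20 UMIs in the pair of libraries. Vegfa (-1.39) and Adm (-2.88) were at least 2-fold lower, beside 33.5% of genes. The median gene was lower by 0.45 on this scale, and scaling by the median of gene ratios moved that median to 0.13, with 24.0% of genes 2-fold higher and 21.2% lower, and brought Vegfa to -0.81. Stress genes known to respond to tissue dissociation (Fos, Fosb, Jun, Junb, Egr1, Atf3, Hspa1a and Hspa1b) were also highest at d0 in sum, though Jun was higher in both d5 libraries and Fosb at d5 post-fracture. The summed level of the 8 genes was 17482 CPM at d0, 3652 at d3 post-fracture and 2278 at d3 post-polytrauma, then 11298 and 6397 in the d5 fracture and polytrauma libraries. Vegfa and Adm shared that maximum at d0, and the part of dissociation in their levels was not tested.

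From d3 to d5 post-fracture, Hif1a was higher (1.26), beside 40.3% of 15115 genes at least 2-fold higher, and Ndrg1 (-1.55), Egln3 (-1.59) and Ankrd37 (-1.87) were at least 2-fold lower, beside 5.45%. Bnip3 was at -0.65, and at -1.44 without cells of shared barcodes. It stayed at -0.65 when only those short of 10 times the UMIs were left out. The median gene was higher by 0.73 in this pair and lay at -0.01 after scaling by the median of gene ratios, which gave 18.9% of genes higher and 19.5% lower. That scaling left Hif1a at 0.52, turned Vegfa from 0.71 to -0.03 and Adm from 0.05 to -0.69, and put 7 members past 2-fold lower. From d3 to d5 post-polytrauma Hif1a was again higher (1.39, beside 28.8% of 16093 genes at least 2-fold higher), and Adm (-1.40), Ndrg1 (-1.78) and Ankrd37 (-2.30) were at least 2-fold lower, beside 7.49%. Here the scaling moved the median gene from 0.48 to -0.01, gave 15.4% of genes higher and 13.6% lower, left Hif1a at 0.90 and turned Angptl4 from 0.14 to -0.34. Both steps cross the barcode sets named above.

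Set against uninjured muscle, d5 polytrauma had 3 members at least 2-fold higher (Hif1a 2.27, Bnip3 1.74 and Angptl4 2.89, beside 23.5% of 15836 genes) and 3 at least 2-fold lower (Adm -3.88, Ankrd37 -1.79 and Ndrg1 -1.17, beside 22.2%). Hif1a, Bnip3, Angptl4 and Adm thus stood on the same side of d0 at d3 post-fracture and at d5 post-polytrauma, comparisons that share the d0 library. The counts past 2-fold were close to those of genes at large in this comparison.

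The addition of muscle injury to fracture was read at each day within a barcode set. At d3, Egln3 was 4.58-fold (4.02 to 5.23) and Ndufa4l2 2.91-fold (2.85 to 2.97) higher after polytrauma than after fracture. These were 2 of the 10 members, beside 5.45% of 15038 genes, and no member was 2-fold lower, beside 3.14%. Over all cells smaller differences were seen for Bnip3 (1.59-fold), Ankrd37 (1.54-fold), Vegfa (1.37-fold), Adm (1.32-fold) and Ndrg1 (1.20-fold), and Angptl4 (0.557), Pfkfb3 (0.707) and Hif1a (0.861) were lower. In cells named FAP/MP-like alone (302 after fracture, 698 after polytrauma) the log2 ratios were 2.26 for Bnip3, 1.75 for Vegfa, 1.72 for Ankrd37 and 1.06 for Ndrg1. Adm was at -1.59 and Angptl4 at -1.28 in these cells, and Hif1a (0.18) and Pfkfb3 (-0.32) stayed within 2-fold.

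At d5 the same pair stood out. Egln3 was 8.06-fold (6.05 to 10.98) and Ndufa4l2 2.92-fold (2.83 to 3.01) higher after polytrauma, beside 3.74% of 15979 genes at least 2-fold higher. Adm was at 0.483 of the fracture level, the 1 member past 2-fold lower, beside 14.7% of genes. Bnip3 was at 1.56-fold and Vegfa at 1.38-fold. Without cells of shared barcodes the log2 ratio of Bnip3 went from 0.64 to 1.42, past 2-fold, and at d3 from 0.67 to 0.68. That filter took out 869 of the 1468 d5 fracture cells, among them 75 of the 113 chondrocyte-like cells. Leaving out only those short of 10 times the UMIs did not bring Bnip3 past 2-fold. Ndrg1 (1.02, 0.986 to 1.06) and Ankrd37 (1.14, 0.971 to 1.35) were not separated from 1 by their intervals. Angptl4 was at 1.15-fold, Hif1a at 0.942 and Pfkfb3 at 0.691. Of the genes tested, 1.14% at d3 and 0.532% at d5 had a higher ratio than Egln3, and 2.63% and 1.80% than Ndufa4l2. These ranks are a description, since the members were chosen with earlier results of these data known and this pair has their highest ratios. With the deposited labels these d3 and d5 ratios are the changes from d3 to d5 post-fracture and post-polytrauma instead, and the pairs labelled polytrauma and fracture give Egln3 log2 ratios of -1.59 and -0.77 and Ndufa4l2 -0.42 at both days.

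**Figure D2:**
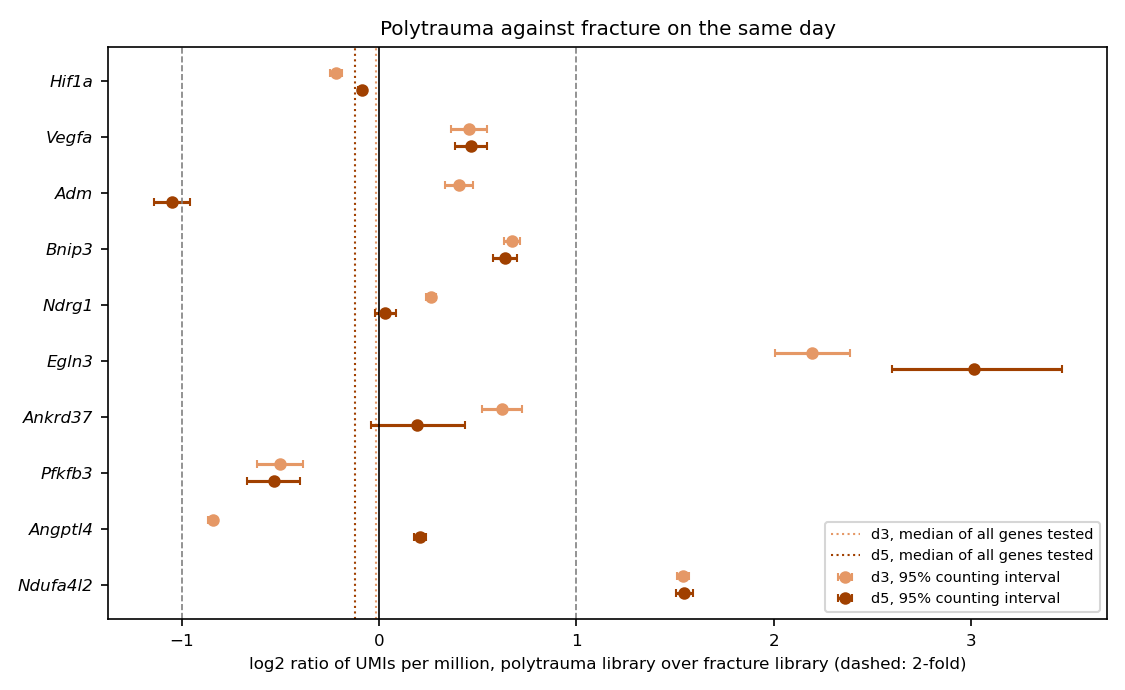
Log2 ratio of polytrauma over fracture at d3 and d5 for the 10 genes, with 95% intervals of counting error. Egln3 (2.20 and 3.01) and Ndufa4l2 (1.54 and 1.55) lie past 2-fold on both days, and Adm and Angptl4 change side between the days.

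Shares of cells were compared after each cell was thinned to 1000 UMIs, since depth differed between libraries. A Hif1a UMI was found in 7.94% of cells at d0, 16.9% and 31.1% at d3 and d5 post-fracture, and 15.1% and 32.6% at d3 and d5 post-polytrauma, the order of its levels apart from the d5 pair. Without thinning the shares were 22.7%, 85.5%, 95.5%, 81.9% and 93.1%. Egln3 was found in 0.604% of cells at d0, 0.215% at d3 post-fracture, 93 of 6201 cells at d3 post-polytrauma and 0.620% of cells at d5 post-polytrauma. In the d5 fracture library it was found in 0 of 1468 thinned cells, a count that allows at most 0.204% of cells with a UMI at that depth, and in 2.11% of cells at full depth. Ndufa4l2 was found in 14.7%, 8.95%, 6.81%, 21.5% and 14.8% of thinned cells at d0, d3 and d5 post-fracture and d3 and d5 post-polytrauma. Hematopoietic-like cells, which number 91 at d3 post-polytrauma with a median of 3736 UMIs and 95 at d5 post-polytrauma with 6754, served as a guide to free RNA. They held Adm in 0% of cells in both libraries and Ndufa4l2 in 3.30% at d3 and 30.5% at d5. The d5 share lies above the 14.8% of all cells, so these cells are no guide to free RNA for Ndufa4l2 there. The 14.8% is not read as a share of expressing cells. The part of free RNA in it, in the 45.3% of pericyte-like cells and in the d5 level of Ndufa4l2 was not tested. Egln3 was found in 1.10% and 2.11% of hematopoietic-like cells, and its shares over all cells are not separated from these.

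Cells of each library were clustered on their own, giving 54 clusters, and a cluster was named only where at least 3 markers of a type and its leading genes allowed it. The members and the cell type markers were kept out of the genes used for clustering. Levels of the members by cluster were not tested and are a description. Ndufa4l2 was high in cells with mural markers. Its level was 1059 CPM in the 48 pericyte-like cells at d3 post-fracture, 761 in 38 such cells at d5 post-fracture, 1418 in 54 at d3 post-polytrauma and 730 in 95 cells at d5 post-polytrauma, and 483 in a d0 cluster led by Tagln and Myh11. The cluster of 95 cells held 6 pericyte markers and was led by Rgs5, but Acta1, Mylpf, Ttn and Myl1, genes of muscle fibres, were also among its 10 leading genes, and it is called pericyte-like with that limit. At d0 a tenocyte-like cluster led by Wif1 and Fmod was higher still, at 654. Egln3 and Ankrd37 were high in pericyte-like cells after polytrauma, at 66.1 and 80.8 at d3 and 32.9 and 29.4 at d5. In the pericyte-like cells of the fracture libraries Egln3 was at 2.00 and 1.45, given without intervals. After thinning, no cell of either group held an Egln3 UMI. Such counts allow at most 6.25% of the 48 cells at d3 and 7.89% of the 38 cells at d5. The size of the difference from the polytrauma libraries in these cells is therefore not read.

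Adm had a different pattern. At d0 it was at 242 over the 3071 FAP/MP-like cells, beside 203 over all cells and a median of 211 over 11 clusters. It ran from 25.7 in the cluster led by Tagln and Myh11 to 494 in a cluster led by G0s2 and Hsd11b1. After injury it was high in FAP/MP-like cells, at 164 at d3 and 87.3 at d5 post-fracture. At d5 post-polytrauma these cells were at 24.6, against 0 in hematopoietic-like, 3.19 in tenocyte-like and 27.4 in the unnamed Krt19 cluster described below. At d3 post-polytrauma the FAP/MP-like cluster (54.5) and an unnamed cluster led by Hbb-bs (54.7) were level. Angptl4 was low in chondrocyte-like (31.3), pericyte-like (56.4) and dividing-like cells (109) and highest in fibroblast-like cells (299.6) at d5 post-fracture. Chondrocyte-like cells of that library had the highest Bnip3 of any of its named groups (161), with Ndufa4l2 at 232, Vegfa at 40.3 and Ndrg1 at 17.5. Hif1a was more even, from 202 in pericyte-like to 489 in fibroblast-like cells at d5 post-fracture.

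**Figure D3:**
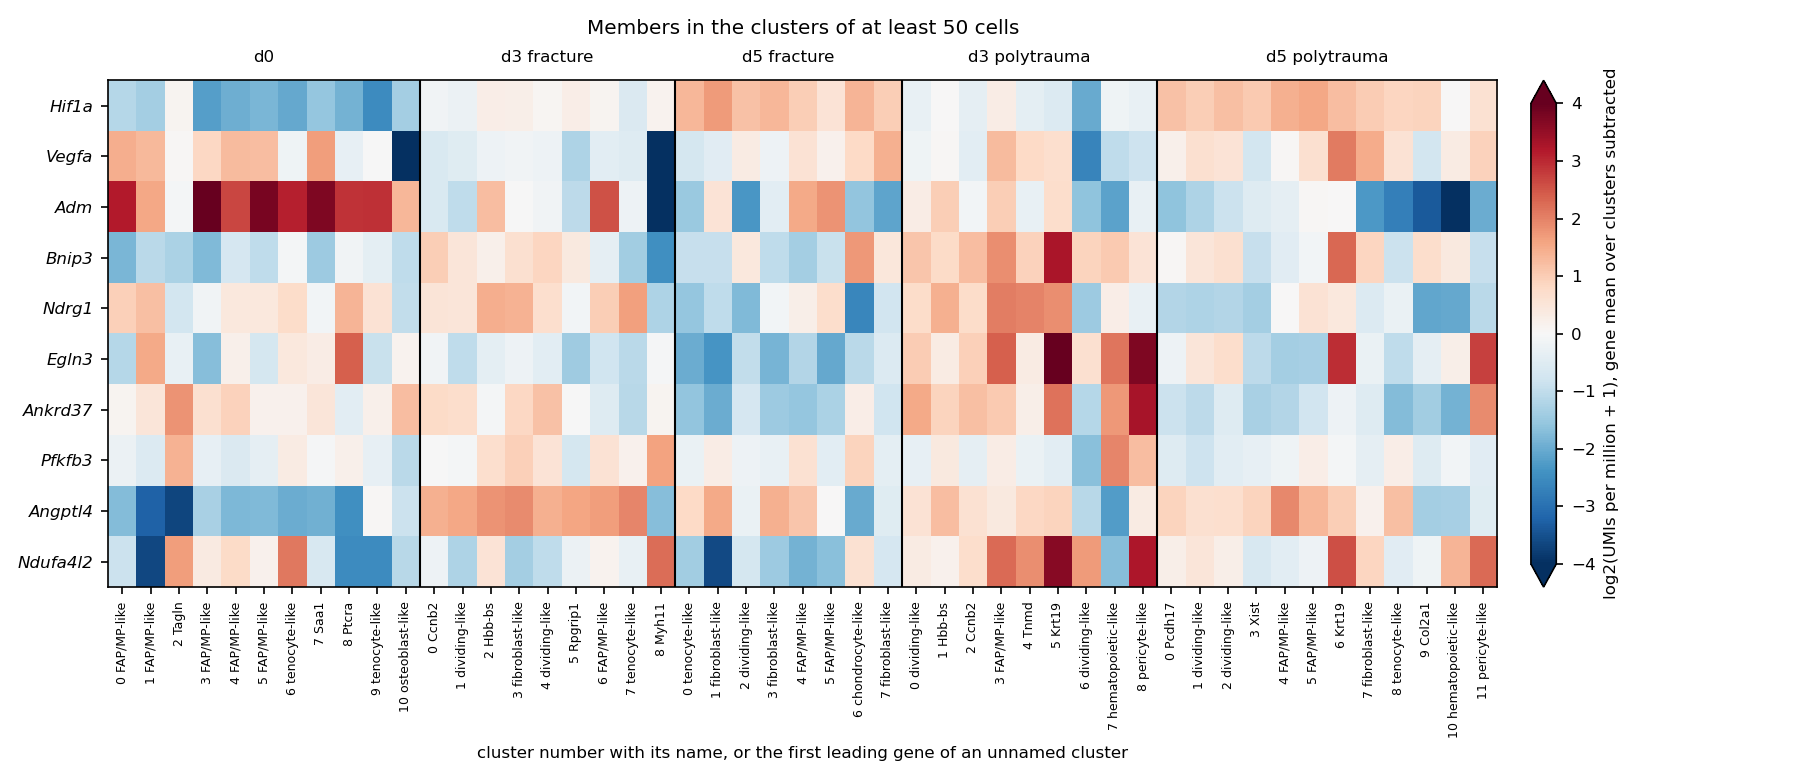
Levels of the 10 genes by cluster in each library, as a heat map of log2(CPM + 1) with each gene's mean over clusters subtracted. Only clusters of at least 50 cells are drawn, which leaves out the pericyte-like clusters of the fracture libraries. Ndufa4l2 is high in the pericyte-like clusters drawn and in those led by Tagln or Myh11. It is higher still in the Krt19 clusters at d3 and d5 post-polytrauma (1892 and 902 CPM) and, at d0, in a tenocyte-like cluster (654). The Krt19 clusters were picked because members lead them. Adm is high in FAP/MP-like clusters after fracture, and at d0 its median over 11 clusters is 211.

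In each polytrauma library 1 cluster was led by members of the set. At d3 post-polytrauma a cluster of 318 cells (5.13%) was led by Krt19, Cox4i2, Selenbp1, Ndufa4l2, Cox7a1, Mgarp and Egln3, and at d5 post-polytrauma a cluster of 794 cells (6.65%) was led by Lcn2, Ankrd1, Ereg, Krt19, Rarres2, H2-Ab1 and Ndufa4l2, with Egln3 among its 10 leading genes. They are called Krt19 clusters here after a gene that leads both. The d3 cluster held 4 fibroblast markers and the d5 cluster 3 FAP/MP markers, so the shared name is not read as 1 cell type on both days. These were the only 2 of the 54 clusters with at least 2 members among the 10 leading genes, and both were left unnamed. They shared 19 of their 50 leading genes: Egln3, Ndufa4l2 and Bnip3, and 16 others, among them Car9 (the cell-surface carbonic anhydrase IX), Pgk1 (phosphoglycerate kinase), Pgf (placental growth factor), Vldlr, Fam162a, Mgarp, Cox4i2 and Il11. With 1 library per condition, a cluster particular to polytrauma and one particular to these libraries cannot be told apart.

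Egln3 was at 92.1 CPM inside the Krt19 cluster and 9.28 in the other cells at d3 post-polytrauma, and at 38.0 and 4.64 at d5. Ndufa4l2 was at 1892 and 256 at d3 and at 902 and 182 at d5, and Bnip3 at 471 and 105 at d3 and at 240.3 and 59.2 at d5. The clusters thus held 30.2% and 43.1% of the Egln3 UMIs of their libraries, 24.3% and 31.4% of the Ndufa4l2 UMIs and 16.4% and 27.3% of the Bnip3 UMIs. Vegfa was at 36.4 and 22.9 at d3 and at 98.8 and 32.9 at d5. Hif1a did not differ in that way, at 123 inside and 157 outside at d3 and at 429 and 406 at d5, nor did Angptl4 (243 and 220.0, 259 and 243). Members at least 2-fold higher inside numbered 3 of 10 at d3, beside 4.94% of genes, and 6 of 10 at d5, beside 3.44%. Nothing is read from these counts, since the clusters were picked because members lead them.

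Genes of the wider lists were likewise kept out of the clustering. Car9, Pgk1, Pgf, Vldlr and Fam162a are among the 50 leading genes of both clusters. The clusters were picked by the members, and the values of these lists were not tested and are a description. Of 27 other hypoxia-induced genes 10 were at least 2-fold higher inside at d3 and 12 at d5, and of 17 glycolysis genes 11 and 9. Car9 was 15.8-fold and 9.28-fold higher, Pgk1 3.69-fold and 2.75-fold, the kinase gene Pdk1 3.59-fold and 2.87-fold, Pgf 5.81-fold and 6.14-fold, and Egln1, the main oxygen-sensing hydroxylase, 3.16-fold and 2.35-fold. None of the 8 dissociation genes was 2-fold higher in either cluster. Their cells had median mitochondrial shares of 1.52% and 2.56%, the leukocyte marker Ptprc at 0.232 and 0.0585 CPM, and possible doublets numbered 7 and 67.

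The Krt19 clusters were picked because members lead them, and they occur in the polytrauma libraries, so leaving them out had to lower the ratios of these members, which are given as a description. The polytrauma over fracture ratio of Egln3 went from 4.58 to 3.34 at d3 and from 8.06 to 5.01 at d5. For Ndufa4l2 it went from 2.91 to 2.30 and from 2.92 to 2.19, and for Bnip3 from 1.59 to 1.39 and from 1.56 to 1.24. Egln3 and Ndufa4l2 remained past 2-fold on both days. FAP/MP-like cells were also read alone, without the Krt19 clusters, of which that at d5 held 3 FAP/MP markers and was left unnamed because members lead it. The naming left out further clusters with FAP/MP markers. At d3 these included a cluster of 915 cells after fracture with 5 such markers and one of 1571 cells after polytrauma with 4, both led by Hbb-bs. The d3 values below thus cover only a part of the cells with FAP/MP markers. At d3 Egln3 was at 25.9 after polytrauma (698 cells) and 1.94 after fracture (4 UMIs in 302 cells) and Ndufa4l2 at 736 and 166, while at d5 Egln3 was at 0.997 (28 UMIs in 2095 cells) and 0.833 (8 UMIs in 318 cells) and Ndufa4l2 at 122 and 42.7. The d5 log2 ratio of Egln3 in these cells, 0.26, rests on few UMIs and on a naming that took out the cluster richest in Egln3. Fewer cells of a type and less RNA per cell cannot be told apart in the library totals.

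**Figure D4:**
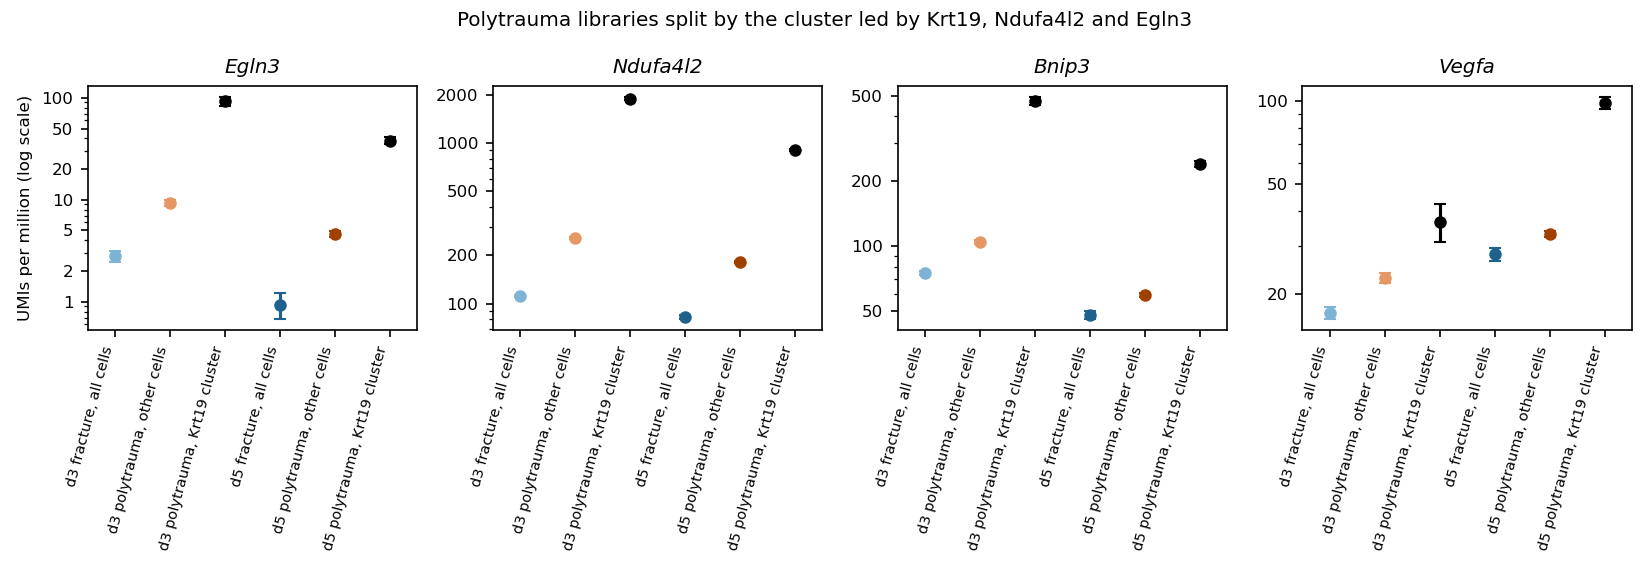
Levels of Egln3, Ndufa4l2, Bnip3 and Vegfa at d3 and d5, in CPM on a log axis with 95% intervals of counting error. Shown are all cells of the fracture library, and the Krt19 cluster and all other cells of the polytrauma library. Each gene is higher inside the Krt19 cluster than in the other cells on both days. The clusters were picked because members, Egln3 and Ndufa4l2 in both, lead them, so for these genes this was fixed in advance.

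Other genes of the pathway were read by list over all cells, as counts past 2-fold beside the percentages given above for each comparison. Of the 8 oxygen-sensing genes tested, 0 were higher and 3 lower at d3 post-fracture than at d0 (median log2 ratio -0.17 against -0.45 for all genes). Epas1, which encodes the other main alpha subunit, was at 93.6 CPM at d0 and 4.88 to 10.1 in the injured libraries, highest where Hif1a was lowest. Arnt was at 36.7 at d0, 13.8 and 14.9 in the d3 fracture and polytrauma libraries and 41.9 and 27.8 at d5. Egln1 was at 20.8 to 23.9 in the d0 and d3 libraries and at 61.2 (fracture) and 93.4 (polytrauma) at d5, and Vhl lay between 10.7 and 12.4 throughout. Between polytrauma and fracture no gene of this list passed 2-fold on either day.

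Of 17 glycolysis genes, 11 were at least 2-fold higher and 1 lower at d3 post-fracture than at d0 (median 1.64), and 11 higher and 0 lower at d5 post-polytrauma (median 1.73 against 0.12 for all genes). Slc16a3, the lactate exporter, was at 10.7 at d0 and 72.5 to 120.4 after injury, and Pgk1 at 104 and 305 to 864. From d3 to d5 post-fracture 8 of the 17 were lower and 1 higher. Polytrauma and fracture differed past 2-fold in 1 gene of this list higher at d3 (Aldoc), and 1 higher (Pgk1, 2.02-fold) and 1 lower (Aldoc) at d5. By any amount, 16 of the 17 were higher after polytrauma at d3 (median log2 ratio 0.22 against -0.01 for all genes). At d5 15 of the 17 were higher (0.73 against -0.12).

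Of 27 other hypoxia-induced genes, 9 were higher and 8 lower at d3 post-fracture than at d0, and 3 were higher and 1 lower at d3 post-polytrauma than at d3 post-fracture (median 0.26 against -0.01 for all genes). Car9 was not detected at d0 (0 UMIs) and was at 0.420 at d3 post-fracture, 1.95 at d5 post-fracture, 3.64 at d3 post-polytrauma and 2.89 at d5 post-polytrauma, at least 2.44-fold higher at d3 post-fracture than the level that 3 UMIs would give at d0. It was 8.66-fold higher at d3 post-polytrauma than at d3 post-fracture, on 376 and 42 UMIs. In that comparison Stc2 (2.95-fold) and Vldlr (2.60-fold) were also higher. Car12 was 6.15-fold lower, at 2.75 after polytrauma and 16.9 after fracture, on 284 and 1689 UMIs. At d5 post-polytrauma 0 were higher and 3 lower than at d5 post-fracture (Ppp1r3c, Car12 and Vldlr).

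Among 12 genes for VEGF and adrenomedullin ligands and receptors, 1 was higher and 8 lower at d3 post-fracture than at d0 (median -1.35). Calcrl and Ramp1 were, like Adm, highest at d0, Calcrl at 28.5 against 2.53 to 6.02 after injury and Ramp1 at 90.6 against 1.72 to 8.16. At d3 2 genes of the list were at least 2-fold higher after polytrauma than after fracture, Ramp3 (3.90-fold) and Calcrl (2.38-fold), and 0 were lower. At d5 1 was higher (Pgf, 2.38-fold) and 3 were lower, Ramp1 (0.274), Kdr (0.300) and Ramp2 (0.446). From d0 to d3 post-fracture the summed level of 5 endothelial markers went from 48.7 to 3.64 and that of 6 pericyte markers from 758 to 70.1, with 4 of 5 and 6 of 6 at least 2-fold lower, and the part of these cells in the receptor and ligand levels was not tested. Pgf was at 95.3 at d0, 12.5 and 2.12 at d3 and d5 post-fracture, and 19.6 and 5.05 at d3 and d5 post-polytrauma, higher after polytrauma on both days.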

How the data were processed

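Per the labels and the file headers, the authors sequenced 10x libraries made with a version 2 kit for 3′ ends, counted reads with Cell Ranger (matrix header version 3.1.0; the methods name a later release) on mm10, and worked in Seurat (version 3.1.2 in the submitters' processing notes). They deposited raw UMI counts per gene and cell barcode, with no normalization. Cells with 350 to 8000 genes, under 20% mitochondrial UMIs and at least 1000 UMIs were kept, 29831 of 34439 barcodes. Counts were summed per library and divided by its total (CPM, per 1000000 UMIs), with exact 95% Poisson intervals, and ratios have exact binomial ones. Genes with at least 20 UMIs in a pair of libraries were compared, and 2-fold served as the limit in place of a test. The ratio code was tested on simulated data.

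Cells were clustered per library with Seurat 5.3.0 (R 4.3.3, 2000 variable genes, 20 components, resolution 0.5). Members, genes of the wider lists and cell type markers were taken out of the variable genes first. Leading genes are the 10 with the highest fold over the library's other cells (5 CPM added to both). A cluster was named where at least 3 markers of 1 type stood out and its leading genes did not go against the name. Clusters with at least 2 members among their leading genes stayed unnamed, a rule added after seeing the data. Scrublet's own threshold (scanpy 1.11.5) marked at most 4 cells in a library and had not worked, so doublets were kept, and an alternative left out the highest scores at 0.8% per 1000 cells. Cells were thinned at random to 1000 UMIs for shares, with exact (Clopper-Pearson) intervals, and a share of 0 has the limit of 3 counts. Promoters came from RefSeq on GRCm38.p6.

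In every comparison the members past 2-fold are named, with some or all of the others. From each wider list up to 3 genes past 2-fold with the largest ratio were picked by rule in each comparison. Only a part of these picked genes is named. Other genes of these lists, the leading genes of clusters and the genes named for single levels (Egln1, Vhl, Slc16a3, Calcrl, Pdk1 and the like) were chosen after their values were seen. The members and lists were chosen with earlier results of these data known. Alternatives were other scalings, limits, cell filters and cell groups. Python 3.11.15, numpy 2.4.6, scipy 1.17.1 and pandas 2.3.3 were used.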

Additional observations from a re-analysis of the deposited data

Results flagged for a closer look

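The ratio of polytrauma over fracture had opposite signs on the 2 days for Adm, with log2 ratios of 0.40 at d3 and -1.05 at d5 over all cells. In FAP/MP-like cells alone it was -1.59 and -1.83, with the same sign on both days. It also had opposite signs for Angptl4, at -0.84 and 0.21. Angptl4 further differed between injuries in its step from d3 to d5, at -0.90 after fracture and 0.14 after polytrauma, and the latter became -0.34 when libraries were scaled by the median of gene ratios. With 1 library per condition these differences were not tested.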

How the results depend on the processing

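No paired analysis was possible because each condition has 1 library, and for the same reason no replicate could be left out. The 24 member ratios past 2-fold kept their direction under every alternative but the deposited labels. Past 2-fold remained 20 with scaling by the median of gene ratios, 18 in FAP/MP-like cells alone, 23 without dividing-like cells and 24 under each of the other 9 alternatives on cells, doublets, barcodes or scaling. The cause of the changes below was not tested.

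At a limit of 1.5-fold, 4 members were lower at d3 fracture than at d0, 2 higher and 5 lower at d5 than at d3 fracture, 4 higher and 1 lower at d3 polytrauma than at d3 fracture, and 2 higher and 5 lower at d5 than at d3 polytrauma. Scaling by the median of gene ratios gave 1 lower at d3 fracture than at d0, and 0 higher and 7 lower from d3 to d5 fracture. It gave 0 lower at d5 polytrauma than at d5 fracture, beside 11.5% of genes under that scaling. From d3 to d5 polytrauma it gave 0 higher and 5 lower. The shares of genes for the other pairs under that scaling are given above. In FAP/MP-like cells alone, 0 were higher from d3 to d5 fracture, 6 higher and 2 lower at d3 polytrauma than at d3 fracture, 1 higher at d5 polytrauma than at d5 fracture, and 2 higher and 6 lower from d3 to d5 polytrauma. These cells are 302 of 1 cluster at d3 fracture, and leave out an unnamed cluster of 915 cells there that held 5 FAP/MP markers. The mean over cells gave 5 lower from d3 to d5 polytrauma. For the 1.5-fold limit, FAP/MP-like cells alone and the mean over cells no share of all genes is given. Nothing about the members is read from those counts.

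Under the deposited labels 2 were higher and 0 lower from d3 to d5 fracture, with log2 ratios of Hif1a at -0.22, Ndrg1 at 0.26, Egln3 at 2.20 and Ankrd37 at 0.62. Polytrauma against fracture then had 1 higher and 3 lower at d3, with Egln3 at -1.59 and Ndufa4l2 at -0.42, and 1 higher and 3 lower at d5, with Egln3 at -0.77 and Ndufa4l2 at -0.42. From d3 to d5 polytrauma 2 were higher and 1 lower, with log2 ratios of -0.086 for Hif1a, 0.032 for Ndrg1 and 0.19 for Ankrd37.

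Without cells of shared barcodes 3 were higher at d5 polytrauma than at d5 fracture and 4 lower from d3 to d5 fracture, with Bnip3 added to each. No share of all genes is given for this filter either, and nothing about the members is read from these counts. Against d0, d5 polytrauma turned lower without the Krt19 clusters for Egln3 and Ndufa4l2. For Egln3 it was also lower in FAP/MP-like cells alone, at a log2 ratio of -2.42.

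Depth limits Egln3 most, with 48 UMIs in the d5 fracture library.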

Other observations

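Of the paralogs of members, 2 of 10 were at least 2-fold higher and 5 lower at d3 post-fracture than at d0, and 0 were higher and 0 lower at d3 post-polytrauma than at d3 post-fracture. Ndrg2 was at 99.8 CPM at d0 and 9.92 at d3 post-fracture, where Ndrg1 was 1.27-fold higher than at d0.

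Over the 49 clusters of at least 50 cells, the genes whose log2 level was most like the mean of the members were Gdnf (Pearson r = 0.74), Ereg (0.74), Serpinb2 (0.73), Csf3 (0.68) and Cxcl3 (0.67), among 9419 genes. Centred within each library, a variant chosen after seeing the data, they were Ereg (0.74), Phlda1 (0.72), Smad4 (0.71), Arid2 (0.70) and Susd6 (0.67). Clusters of a library share its depth and preparation, so these are descriptions. Among the 45 pairs of members r ran from -0.60 (Hif1a and Adm) to 0.62 (Egln3 and Ankrd37), and after centring from -0.32 to 0.70 (Adm and Angptl4).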
